A study of Mus musculus with 3 samples.

Results

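The cells described here are beta cells of the islet library taken 5 weeks after *Taf4* inactivation, split by how much *Herpud1* and *Ddit3* RNA each cell held. A beta cell was a barcode with 3000 or more unique molecular identifiers (UMIs, the counted RNA molecules), *Ins2* at 20% or more of them, *Gcg* under 3% and *Sst* under 2%. Of 11229 barcodes in the library, 3562 met these limits. The high side held 1271 cells, selected on *Herpud1* plus *Ddit3* at 0.08% or more of their UMIs, and the low side 1138 cells chosen by a share under 0.03%. Another 1153 cells lay between these thresholds, and the whole series holds 25524 barcodes. The mice were C57/Bl6 animals labelled as male. The mutants carried *Ins1*::Cre-ERT2 with *Taf4* lox/lox alleles and were given tamoxifen as adults on 3 consecutive days. The driver is expressed from an insulin promoter, so the deletion is directed to insulin-producing cells. The 5-week library pooled 300 islets from 2 mutant mice, which cannot be told apart. Further libraries of 300 islets came from 2 mutant mice at 1 week and from 1 WT mouse. The paper calls the WT islets *Taf4* +/+. It describes its *Taf4* +/+ controls as carrying the same driver and also given tamoxifen. Islets were dissociated enzymatically and live cells were sorted before capture with 10X Genomics Chromium 3′ chemistry.

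The endoplasmic reticulum (ER) folds secreted proteins, and insulin makes up much of what a beta cell passes through it. When unfolded protein accumulates, the sensors Ire1, Atf6 and Perk start the unfolded protein response, which raises chaperones, degradation of ER proteins and, through Perk and *Atf4*, the integrated stress response. *Herpud1* encodes an ER membrane protein that assists ER-associated degradation, and *Ddit3* encodes CHOP, a transcription factor induced late in that response and linked to beta cell death. Cytosolic heat shock chaperones are controlled separately, by heat shock factors, and immediate early genes such as *Fos* and *Jun* are transcribed within minutes of many kinds of stimulus.

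Each condition had 1 library, so cells are not replicates and no test between the sides was made. Each cell was thinned to 3000 UMIs, the UMIs of all cells on a side were added up, and levels are given as CPM, a gene's UMIs per 1e6 UMIs of that sum. Parentheses hold exact 95% intervals, Poisson after a level, conditional after a log2 ratio and Clopper-Pearson after a share, and they cover counting error only. A gene was tested, here meaning compared, with 50 or more thinned UMIs over both sides, and is called higher or lower where the ratio passed 1.5-fold. The libraries held between 19472212 and 39408284 UMIs. The 5-week library shared 33 cell barcodes with WT and 5 with the 1-week library. The library labelled as a WT male held 17357 *Xist* UMIs and 0 UMIs over 4 Y-linked genes, which goes against that label, whereas the mutant libraries held 17 and 11 *Xist* UMIs. *Taf4*, the targeted gene, had 18 thinned UMIs on the high side and 13 on the low side, 4.72 against 3.81 CPM. Whether the 3′ tags counted lie outside the deleted part of *Taf4* is not given in the sources used here, so these counts do not check the deletion.

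Depth was nearly equal before thinning, with a median of 5105 UMIs per cell on the high side and 5056.5 on the low side. Cells between the thresholds were deeper, at a median of 6434. The median share of mitochondrial UMIs was 2.91% on the high side and 2.89% on the low side. The defining markers of beta cells were present on both sides: the median cell held 57.9% *Ins2* and 5.44% *Iapp* on the high side, and 61.3% and 5.91% on the low side.

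*Herpud1* (chr8:94386429-94395371) and *Ddit3* (chr10:127290793-127296291, both GRCm38.p6) chose the sides, so their levels describe the selection. *Herpud1* was at 1082 CPM (1049 to 1115) on the high side, 407 CPM between the thresholds and 98.1 CPM (87.9 to 109) on the low side. *Ddit3* was at 383 CPM (364 to 404), 112 CPM and 28.1 CPM (22.8 to 34.3) in the same order. On the high side 1010 cells (79.5%, 77.1 to 81.7) had UMIs of both genes and 250 had none of *Ddit3*, so the selection rested mostly on *Herpud1*, of which 11 high cells had no UMI. On the low side 451 cells had neither. The sides are cuts through a range of measured shares with no gap at the thresholds. Whether separate types underlie that range cannot be told from shares that rest on a few UMIs per cell. The nearest cells to the upper threshold were at 0.0799% and 0.08% of UMIs, and 342 cells lay within 0.01 percentage points of it. At the lower threshold 699 cells lay as near.

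Choosing cells by a few molecules makes those molecules look more different than the cells are. The UMIs of each cell were therefore divided at random into equal parts, the sides chosen on one part and compared on the other, in 520 high and 559 low cells deep enough for this. On the UMIs that did not choose the cells *Herpud1* was at 777 against 273 CPM, a log2 ratio of 1.51 (1.35 to 1.67), and *Ddit3* at 269 against 78.7 CPM, a log2 ratio of 1.77 (1.49 to 2.07). With sides made by *Herpud1* alone, *Ddit3*, which then chose no cell, had a log2 ratio of 1.76 (1.57 to 1.96). With sides made by *Ddit3* alone, *Herpud1* was at 787 against 414 CPM, a log2 ratio of 0.93 (0.85 to 1.01). Both genes thus moved in the same direction in cells chosen by the other.

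The promoters of both selecting genes and of *Hspa5*, the ER chaperone with the largest difference, are shown with their matches to elements known from stress-induced genes. Sequences are from RefSeq, build GRCm38.p6, from 250 bases before to 50 after the start, all on the plus strand. Capitals mark the fixed letters of matches to 7 motifs searched on both strands: the ER stress response element (CCAAT, 9 bases of any kind, CCACG), its form II (ATTGG, 1 base, CCACG), the C/EBP-ATF response element TGATGNAA, the AP-1 site TGANTCA, the cAMP response element TGACGTCA, the unfolded protein response element TGACGTGG and the heat shock element (GAA, TTC and GAA with 2 bases between).
Herpud1 promoter, chr8:94386179-94386478: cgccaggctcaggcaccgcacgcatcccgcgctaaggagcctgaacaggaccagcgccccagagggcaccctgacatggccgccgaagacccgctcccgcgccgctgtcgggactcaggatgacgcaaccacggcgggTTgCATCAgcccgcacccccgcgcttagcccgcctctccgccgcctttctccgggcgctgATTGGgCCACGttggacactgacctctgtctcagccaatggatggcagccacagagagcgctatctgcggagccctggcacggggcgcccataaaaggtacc
Ddit3 promoter, chr10:127290543-127290842: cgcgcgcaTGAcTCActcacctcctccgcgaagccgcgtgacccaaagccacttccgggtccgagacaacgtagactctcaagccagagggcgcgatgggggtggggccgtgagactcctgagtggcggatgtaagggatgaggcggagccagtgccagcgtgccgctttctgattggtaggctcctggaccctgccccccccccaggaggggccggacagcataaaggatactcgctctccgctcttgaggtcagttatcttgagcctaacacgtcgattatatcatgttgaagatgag
Hspa5 promoter, chr2:34771840-34772139: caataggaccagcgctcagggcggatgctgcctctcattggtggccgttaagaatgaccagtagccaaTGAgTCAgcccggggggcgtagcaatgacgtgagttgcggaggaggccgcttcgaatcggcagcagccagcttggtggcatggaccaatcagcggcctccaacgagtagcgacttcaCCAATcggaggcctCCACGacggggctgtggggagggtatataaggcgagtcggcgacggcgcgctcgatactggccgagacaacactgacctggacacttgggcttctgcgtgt
The *Herpud1* window held 1 form II element, starting 52 bases before the start site, and 1 C/EBP-ATF element on the other strand. The *Ddit3* window held 1 AP-1 site and no match to either ER stress response element or to the C/EBP-ATF element. The *Hspa5* window held 1 AP-1 site and 1 ER stress response element starting 65 bases before the start site. Among 27025 genes with 1 promoter each, the ER stress response element was in 0.13%, form II in 0.037%, the C/EBP-ATF element in 4.06%, the AP-1 site in 7.93%, the cAMP response element in 1.88%, the unfolded protein response element in 0.607% and the heat shock element in 0.529%.

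Across 5921 genes compared, 482 were at least 1.5-fold higher on the high side (8.14%) and 85 lower (1.44%), and the median log2 ratio was 0.11. The 95% interval stayed above 0 for 358 of the higher genes and below 0 for 40 of the lower. Many called genes had low counts: 377 of the higher and all 85 of the lower genes had under 200 UMIs. Low counts were also common over all genes, as 1993 of the 5921 compared had 200 or more UMIs. In simulated cells of the same depths, 4.66% of unchanged genes passed 1.5-fold in either direction by counting error. That simulation held no differences between cells of a side. Counts of list members below, in this library, stand beside the shares of 8.14% and 1.44% over all genes. With *Ins1* and *Ins2* left out of the denominator, the median became -0.05 and the split 270 higher against 205 lower, since insulin RNA took a smaller share on the high side. Small ratios therefore have no fixed sign. Of the genes named below as higher, *Creld2*, *Sel1l*, *Creb3l1*, *Atf4*, *Dars*, *Mcl1*, *Bbc3*, *Mt1*, *Cd81*, *Sox4*, *Taf7*, *Rpl13a*, *Psmd3* and *Ppy* did not pass with that denominator, at 0.44 to 0.57.

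**Figure D1:**
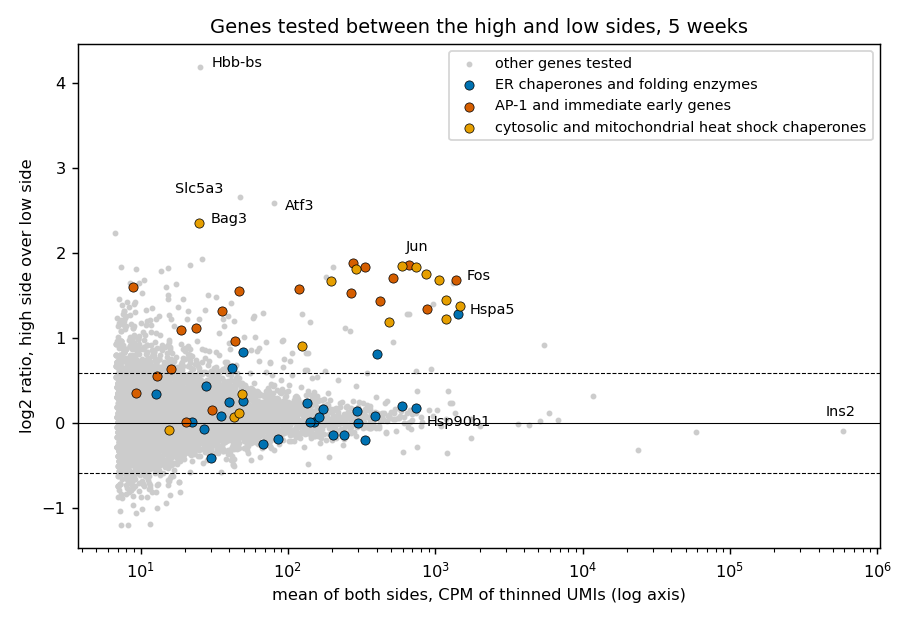
Each point is 1 of 5921 genes compared between high and low cells of the 5-week library, with the mean CPM of both sides on a log axis and the log2 ratio of high over low; dashed lines mark 1.5-fold. Heat shock and immediate early genes form an arm at high levels between about 1 and 2, with *Hspa5* at 1.29 at its edge, while most ER chaperones lie near 0.

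Heat shock chaperones were higher on the high side as a group. Of 16 listed cytosolic and mitochondrial chaperones, 12 were higher on the high side and none lower, against 8.14% higher over all genes, with a median log2 ratio of 1.42. Their summed level was 12374 CPM on the high side, 7821 CPM between the thresholds and 4404 CPM on the low side, a 2.81-fold difference. *Hspa1a* and *Hspa1b*, the inducible Hsp70 genes, are near-identical copies whose reads may have been split between them. *Hspa1a* was at 1343 against 398 CPM and *Hspa1b* at 934 against 259 CPM, a log2 ratio of 1.85 (1.74 to 1.96). *Dnajb1*, an Hsp40 partner of Hsp70, was at 1153 against 322 CPM. *Hspb1*, a small heat shock protein, was at 452 against 128 CPM, and *Bag3*, a cochaperone of selective autophagy, at 42.0 against 8.20 CPM, with a log2 ratio of 2.36 (1.77 to 2.99). The 4 members that did not pass were *Hspa9*, *Clpp*, *Hspa4* and *Lonp1*, at log2 ratios of 0.35, 0.12, 0.07 and -0.08. All but *Hspa4* of these encode mitochondrial proteins, while mitochondrial *Hspd1* and *Hspe1* were higher, at 0.91 and 1.19. A heat shock element was in the promoter window of 2 of the 12 listed genes with an entry.

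Immediate early genes differed to a similar extent. Of 20 compared, 16 were higher and none lower, with a median log2 ratio of 1.39. Their sum was 7727 CPM on the high side, 4523 CPM between and 2563 CPM on the low side. *Fos* was at 2108 CPM (2062 to 2155) against 655 CPM (628 to 682), and *Jun* at 1048 against 289 CPM, log2 ratios of 1.69 (1.62 to 1.76) and 1.86 (1.76 to 1.96). These genes encode partners of the AP-1 transcription factor, as do *Fosb* and *Junb*, at 1.89 (1.73 to 2.05) and 1.84 (1.70 to 1.98). *Egr1*, a zinc finger factor, was at 797 against 243 CPM. The members not past 1.5-fold were *Ier3*, *Nr4a2*, *Mafg* and *Bhlhe41*, at 0.55, 0.36, 0.16 and 0.02. When the sides were chosen on other UMIs than those compared, the medians were 1.28 for heat shock and 1.39 for immediate early genes, with 12 and 13 members higher.

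These shifts were spread over cells rather than confined to a few. The median cell gave 1.11% of its UMIs to the heat shock list on the high side, 0.712% between and 0.285% on the low side. For the immediate early list the medians were 0.708%, 0.422% and 0.162%. The distributions overlapped: 40.05% of high cells were above the 95th percentile of low cells for heat shock and 41.5% for immediate early genes. *Fos* was found in 1205 of 1271 high and 648 of 1138 low cells after thinning. Islets were dissociated and sorted before capture, and the part of that handling in these lists was not tested.

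**Figure D2:**
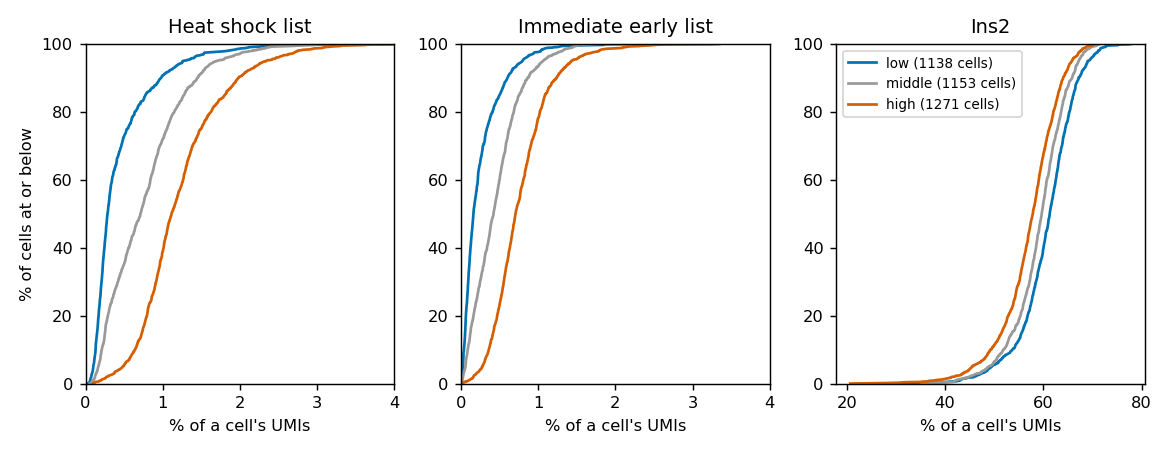
Cumulative share of cells (vertical axis, %) against the share of each cell's UMIs taken by the heat shock list, the immediate early list and Ins2, for 1138 low, 1153 middle and 1271 high cells of the 5-week library. The whole curves shift right from low to high for both lists, with medians of 0.285% and 1.11% for heat shock, and left for Ins2, with medians of 61.3% and 57.9%.

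ER chaperones did not move as a group. Of 27 compared, 4 were higher, against 8.14% over all genes, and none lower. The median log2 ratio of 0.08 was beside 0.11 for all genes. *Hspa5* (BiP, chr2:34772090-34776529), the Hsp70 of the ER lumen that also holds the stress sensors inactive, was at 2036 CPM (1991 to 2082) on the high side, 1294 CPM between and 832 CPM (802 to 863) on the low side. Its log2 ratio was 1.29 (1.23 to 1.35), a 2.45-fold difference, and 1.19 when cells were chosen on other UMIs. *Pdia4*, a disulfide isomerase, was at 63.5 against 35.4 CPM (log2 0.84, 0.52 to 1.17), *Calr*, the lectin chaperone calreticulin, at 513 against 293 CPM (0.81, 0.70 to 0.92) and *Creld2* at 50.6 against 32.2 CPM (0.65, 0.31 to 1.00). *Creld2* was at 0.50 without insulin in the denominator and no longer passed. *Ppib* and *Dnajc10* were lowest, at -0.24 and -0.42, neither past 1.5-fold. The summed list was at 5360 CPM on the low side and 7019 CPM on the high side, of which *Hspa5* alone made up the greater part of the gain.

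An ER stress response element was in the promoter window of 10 compared genes, named here because of that match and after their values were known. They are shown in order of their log2 ratio, each site read 5′ to 3′ on its own strand in GRCm38.p6 with its fixed letters in capitals, since genes with the same element differed on these sides.
Derl3, chr10:75893242-75893260, minus strand: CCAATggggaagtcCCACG
Hspa5, chr2:34772025-34772043, plus strand: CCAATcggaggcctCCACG
Syvn1, chr19:6046532-6046550, plus strand: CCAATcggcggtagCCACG
Calr, chr8:84847075-84847093, plus strand: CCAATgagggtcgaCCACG
Creld2, chr15:88819520-88819538, minus strand: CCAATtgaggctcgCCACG
Canx, chr11:50325800-50325818, minus strand: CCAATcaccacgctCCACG
Hsp90b1, chr10:86705638-86705656, minus strand: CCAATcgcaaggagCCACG
Hsp90b1, chr10:86705533-86705551, plus strand: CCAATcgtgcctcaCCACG
Hnrnpa3, chr2:75659017-75659035, minus strand: CCAATggcgagagcCCACG
Pdia6, chr12:17266491-17266509, plus strand: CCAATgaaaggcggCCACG
Dnajc3, chr14:118937827-118937845, plus strand: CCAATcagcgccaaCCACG
Of these 10 genes 5 were past 1.5-fold, *Derl3*, *Hspa5*, *Syvn1*, *Calr* and *Creld2*, against 8.14% higher over all genes. *Creld2* did not pass without insulin in the denominator. The element was in 1.3% of the windows of all higher genes and in 0.211% of those of all genes compared. Whether it bears on the difference was not tested. *Canx*, *Hsp90b1*, *Hnrnpa3*, *Pdia6* and *Dnajc3* were at log2 ratios of 0.23, 0.17, 0.09, 0.01 and -0.14. *Hsp90b1*, the Hsp90 of the ER lumen, holds 2 exact matches in its window and was at 785 against 696 CPM. *Hspa5*, with 1 exact match, was at 2036 against 832 CPM. Sites that differ from the element by a letter were not searched, so these matches do not count every element of a gene. Form II was in the window of 4 other compared genes, *Rbm39*, *Dnajb11*, *Nucb1* and *Lgalsl*, whose log2 ratios ran from -0.29 to 0.28. A match describes letters in a window and says nothing of use of the site.

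ER-associated degradation, the pathway *Herpud1* belongs to, did not move as a group either. Of 25 compared 3 were higher, against 8.14% over all genes, and 2 without insulin in the denominator. The median log2 ratio of 0.10 was beside 0.11 for all genes. *Derl3*, a derlin of the retrotranslocation complex, was at 21.2 against 6.15 CPM, from 81 and 21 UMIs (log2 1.79, 1.08 to 2.56). *Syvn1* (Hrd1), the ubiquitin ligase of that complex, was at 18.9 against 7.91 CPM (1.26, 0.60 to 1.95), and *Sel1l*, its cofactor, at 47.2 against 30.5 CPM (0.63, 0.28 to 0.99). *Nploc4* was at 0.58, under the threshold, and *Edem2* and *Vcp*, the segregase that extracts substrates, were both at -0.23. The sensors and factors of the response themselves differed little. Of 14 compared, *Creb3l1* alone passed, at 0.59 with an interval from -0.27 to 1.49. *Xbp1*, the factor spliced by Ire1, was at 84.2 against 67.1 CPM (0.33, 0.08 to 0.58). *Atf6* was at 33.8 against 28.4 CPM, *Ern1* (Ire1) at 24.1 against 20.8 CPM and *Eif2ak3* (Perk) at 13.4 against 9.37 CPM, each with an interval that included 0. These 3′ counts do not measure splicing of *Xbp1*.

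The integrated stress response stood between. Of 28 compared, 11 were higher and none lower, with a median log2 ratio of 0.44, and 6 were higher without insulin in the denominator. *Atf3*, a stress-induced factor, was at 137 CPM (126 to 150) on the high side, 60.4 CPM between and 22.8 CPM (18.1 to 28.5) on the low side, a log2 ratio of 2.59 (2.24 to 2.95). *Chac1*, which degrades glutathione and is a target of *Atf4*, was at 42.5 against 14.9 CPM (1.51, 1.05 to 1.99). *Cdkn1a*, an inhibitor of the cell cycle, was at 176 against 71.8 CPM (1.29, 1.08 to 1.51). *Ppp1r15a* (GADD34), which reverses the translational block, was at 82.6 against 34.6 CPM (1.26, 0.95 to 1.57). *Atf4* itself was at 163 against 105 CPM (0.63, 0.44 to 0.82), and at 0.47 without insulin in the denominator. *Trib3*, an inhibitory target of CHOP, had 19 and 14 UMIs, too few to compare. Cytosolic aminoacyl-tRNA synthetases, which the same pathway controls, showed 1 of 18 higher (*Dars*, 0.65, -0.05 to 1.37), with *Eprs* at 0.41, *Sars* at 0.36, *Mars* at -0.37 and *Rars* at -0.41. The C/EBP-ATF element was in 6 of the 25 promoter windows of this list (24%), *Atf3* and *Chac1* among them. It was in 2.07% of the windows of all higher genes and in 2.16% of those of all genes compared. The list includes targets of *Atf4* and CHOP by design, so its share says nothing of the high side.

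Of 8 apoptosis regulators compared, 3 were higher, against 8.14% over all genes, and 1, *Txnip*, without insulin in the denominator. *Txnip*, which binds thioredoxin and is known to promote beta cell death, was at 333 against 153 CPM (1.12, 0.98 to 1.27), *Mcl1*, an antiapoptotic member of the Bcl2 family, at 29.9 against 19.6 CPM (0.61, 0.16 to 1.06) and *Bbc3* (PUMA) at 13.4 against 8.79 CPM (0.61, -0.07 to 1.31). *Bax* was at 75.8 against 76.2 CPM and *Xiap* at 12.1 against 14.9 CPM. Among 21 antioxidant genes 3 were higher, against the same 8.14%, and 2 without insulin in the denominator. The 3 were *Hmox1*, the haem oxygenase, at 22.6 against 9.67 CPM (1.22, 0.63 to 1.85), *Gpx1* at 82.1 against 44.5 CPM (0.88, 0.60 to 1.17) and the metallothionein *Mt1* at 1136 against 732 CPM (0.63, 0.56 to 0.71). *Mt2* was at 0.53, *Srxn1* at -0.25 and *Txnrd1* at -0.27.

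Insulin RNA was lower on the high side by a small amount. *Ins2* was at 571476 CPM against 607379 CPM, a log2 ratio of -0.09, and *Ins1* at 21034 against 26182 CPM, a log2 ratio of -0.32 (-0.33 to -0.30). Neither passed 1.5-fold. Cells with *Ins1* at 5% or more were 2.91% (2.06 to 3.99) of the high side and 6.77% (5.38 to 8.38) of the low side. *Iapp*, the amyloid peptide secreted with insulin, was at a log2 ratio of -0.11. None of 25 hormone and granule genes passed in either direction, with a median of -0.08.

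Beta cell identity genes were near level. Of 25 compared 1 was higher and none lower, with a median of 0.02. *Mafa*, the factor of mature beta cells, was at 205 against 214 CPM (-0.06, -0.21 to 0.09), *Pdx1* at 91.8 against 88.2 CPM (0.06, -0.17 to 0.29) and *Nkx6-1* at 185 against 153 CPM (0.27, 0.11 to 0.44). *G6pc2*, the islet glucose-6-phosphatase, was at 115 against 160 CPM (-0.48, -0.67 to -0.30) and *Tmem27* at -0.46 (-0.89 to -0.04). *Slc2a2* (8 and 9 UMIs) and *Ucn3* (19 and 22) were too rare on both sides to compare. Of the progenitor or disallowed genes 3 were compared, and *Ldhb*, *Cd81* and *Sox4* were at 1.00, 0.67 and 0.64. They are the members that reached 50 UMIs of 20 listed, and *Cd81* and *Sox4* did not pass without insulin in the denominator.

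The machinery of secretion and energy was level as well. None of 31 translocation and glycosylation genes, 39 early transport genes, 74 nuclear OXPHOS genes and 13 mitochondrially encoded mRNAs passed in either direction, with medians between -0.0024 and 0.0090. Among 87 ribosomal protein genes 1 was higher (*Rpl13a*, 0.61), and among 35 proteasome genes 1 (*Psmd3*, 0.61). *Ssr4*, a subunit of the translocon-associated complex, was at 675 against 822 CPM (-0.28, -0.36 to -0.21). Sterol and fatty acid synthesis genes were not level, with 5 of 15 higher, against 8.14% over all genes, and 1 lower, *Scd2*. Their median was 0.44, beside 0.44 for the integrated stress response, and 4 were higher without insulin in the denominator. The higher ones included *Fdft1* at 1.16 (0.29 to 2.10), *Hmgcs1* at 0.87 (0.35 to 1.41) and *Insig1* at 0.85 (0.43 to 1.28). Of 7 TFIID subunits *Taf7* was higher, at 0.73 (0.15 to 1.32). Among nuclear RNAs *Neat1*, the scaffold of paraspeckles, was at 96.5 against 39.3 CPM (1.30, 1.01 to 1.59), and *Malat1*, at 13037 against 10412 CPM, did not pass.

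**Figure D3:**
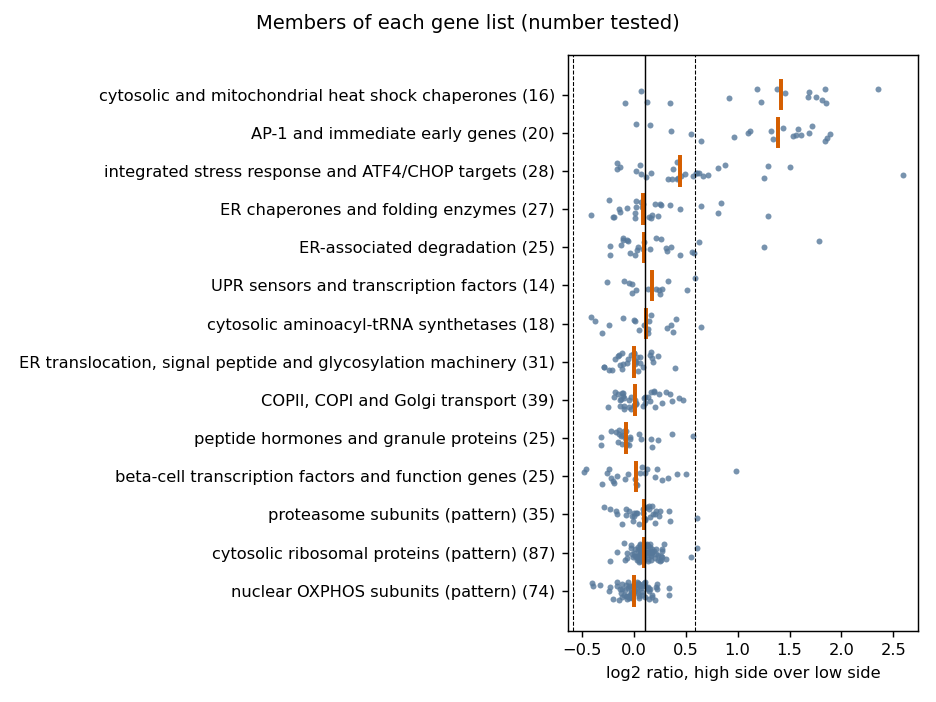
Log2 ratios of high over low for every compared member of 14 gene lists (points, the number in parentheses; orange bars are medians), with the median of all genes as a solid line and 1.5-fold as dashed lines. Heat shock and immediate early genes have medians of 1.42 and 1.39, the integrated stress response 0.44, and the other lists lie beside the median of all genes, 0.11.

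Many of the abundant higher genes belonged to no list. Of 105 higher genes with 200 or more UMIs, 45 were in a list and 60 in none. Those named next are among the most abundant of the 60 and were chosen after their values were seen. *Ubb*, a polyubiquitin gene that supplies ubiquitin under stress, was at 7202 against 3818 CPM, a log2 ratio of 0.92 (0.89 to 0.95). The cytoplasmic actins *Actg1* and *Actb* were at 2017 against 643 CPM and 916 against 374 CPM (1.65 and 1.29), and *Dstn* (destrin) and *Krt8*, a keratin of simple epithelia, at 1.09 and 1.72. *Gadd45g*, a stress-inducible gene, was at 940 against 384 CPM and *C2cd4b* at 677 against 349 CPM.

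By size of ratio, the 15 highest genes included *Atf3*, *Bag3*, *Fosb*, *Jun*, *Hspa1b*, *Dnajb1* and *Junb*, given above. The first, *Hbb-bs*, a beta globin, was not a property of the side: 170 of its 184 high-side UMIs came from 1 cell. *Slc5a3* (chr16:92058322-92087473), the myo-inositol transporter, was at 81.8 CPM (73.0 to 91.4) against 12.9 CPM (9.36 to 17.3), a log2 ratio of 2.67 (2.21 to 3.16), with UMIs in 234 high and 32 low cells. *Mrps6*, with which it shares a start region and possibly reads, was at 1.37 (0.79 to 1.98). *Dnaja4*, another Hsp40, was at 318 against 88.8 CPM (1.84, 1.66 to 2.03). The others were *Vcl* (vinculin, 2.23, 1.12 to 3.54), *Tubgcp4* (1.93, 1.41 to 2.49), *Phlda1* (1.86, 1.30 to 2.47), *Wee1* (1.84, 0.86 to 2.94) and *Zfand2a* (1.82, 1.15 to 2.55). Their high-side and low-side UMIs were 42 and 8, 158 and 37, 130 and 32, 44 and 11, and 91 and 23, in that order. *Vcl* and *Wee1* were near the minimum of 50 UMIs over both sides and reached it mainly through the high side. The 10 lowest, among them *Srrm3*, *Cad*, *Scd2*, *1810044D09Rik*, *Mlh3*, *Prmt7*, *Tlk2*, *Asna1* and *Slc35a3*, ran from -1.20 to -0.88 and had 17 to 39 UMIs on the high side and 33 to 67 on the low side. No gene with 200 or more UMIs was lower by 1.5-fold.

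Levels changed by degrees over bands of the selecting share. The median cell held 6 *Herpud1* UMIs on the high side, 3 between and 0 on the low side. Counting error at such numbers moves cells between bands, so the bands cannot tell a gradient from separate states. Over 7 bands of *Herpud1* plus *Ddit3*, from 451 cells with none to 285 cells at 0.18% or more, *Hspa5* was at 836, 823, 1089, 1421, 1685, 2145 and 2568 CPM, level over the first 2 bands and higher in each band after them. *Fos* went from 606 to 2632 CPM, *Jun* from 231 to 1260 CPM and *Hspa1a* from 364 to 1632 CPM, and these 3 genes were higher in every band than in the one before. *Ins2* fell in every band, from 614696 to 551373 CPM. *Atf4* went from 102 CPM to 176 CPM in the band from 0.12% to 0.18% and was at 172 CPM in the last, within counting error of it. The summed beta identity list stayed between 2265 and 2421 CPM. Depth differed between bands, with median UMIs of 4012 in the first, 7001 in the second and 4057 in the last.

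**Figure D4:**
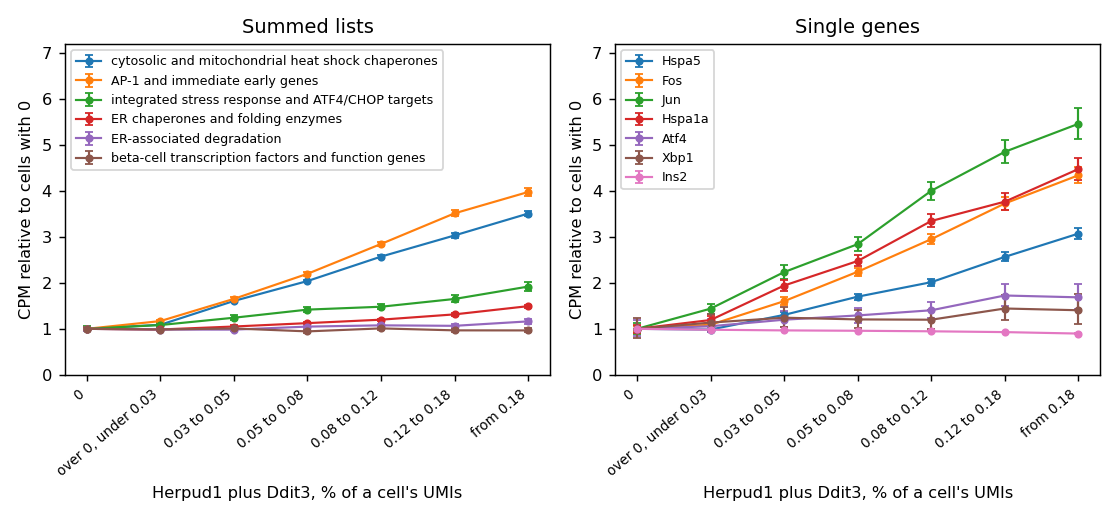
Levels in 7 bands of the share of Herpud1 plus Ddit3 among a cell's UMIs, as CPM of thinned UMIs divided by the level in cells with none; bars are exact 95% Poisson intervals. Heat shock and immediate early lists reach more than 3 times the first band, Hspa5 goes from 836 to 2568 CPM, and the beta identity list stays level.

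The sides were also compared below and above the median of the summed heat shock and immediate early share, a division chosen after the values were seen. That median was 1.30% of UMIs, and 81.5% of high cells but 14.9% of low cells were at or above it. Below it, with 235 high and 969 low cells, *Hspa5* was at 1366 against 663 CPM (log2 1.04, 0.93 to 1.15), *Chac1* at 38.3 against 13.8 CPM (1.48, 0.72 to 2.22) and *Derl3* at 18.4 against 4.47 CPM (2.04, 0.82 to 3.27). At or above it, with 1036 high and 169 low cells, *Hspa5* was at 2195 against 1769 CPM (0.31, 0.21 to 0.41), *Chac1* at 47.3 against 33.5 CPM (0.50, -0.23 to 1.31) and *Derl3* at 18.3 against 3.94 CPM from 57 and 2 UMIs. The sides were still unequal in both lists below the median, where 10 heat shock and 11 immediate early genes were higher, with list medians of 0.78 and 0.99 and *Fos* at 1.44 and *Jun* at 1.29. Above it the list medians were 0.15 and 0.11, with 0 and 1 members higher. The lower stratum is therefore not a comparison of cells matched in these lists. *Hspa5* was higher in low-side cells of the upper stratum (1769 CPM) than in high-side cells of the lower (1366 CPM). *Atf3* was at 2.08 (1.37 to 2.80) and 0.60 (0.19 to 1.04) in the lower and upper stratum. What links these genes was not tested.

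Markers of other islet cells did not rise together with the high side. The summed alpha markers were lower on the high side, at 1704 against 2138 CPM, and *Gcg* was at 1062 against 1355 CPM, which the limit on *Gcg* bounds. Delta markers were at 921 against 920 CPM and acinar markers at 572 against 559 CPM, while PP markers were at 1056 against 943 CPM, with *Ppy* at 0.59 (0.47 to 0.71) past 1.5-fold. Of the 1566 high-side UMIs of *Ppy*, 213 came from 1 cell. Before thinning, 904 of 8658 high-side PP marker UMIs lay in 1 cell and 2785 in 10 cells, against 249 and 1634 of 7171 on the low side, and the median cell held 119 against 121 CPM. Of 6 ductal markers 2 were compared: *Krt18*, which beta cells also express, was at 197 against 86.4 CPM and *Krt7* at 57.4 against 58.9 CPM. All 7 endothelial markers had more UMIs on the high side, but at 24.4 against 5.27 CPM in sum. Before thinning, 116 of their 143 high-side UMIs were in 10 cells. Leaving out cells with 2 or more such UMIs gave 490 higher and 85 lower of 5908 genes compared, and *Hspa5* at 1.28. Macrophage markers were at 5.77 against 8.79 CPM, mesenchymal markers at 1.84 against 0.586 CPM and lymphocyte markers at 2.10 against 0.586 CPM. The part of these cells in the results was not tested. No doublets were called here.

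The same selection was applied within the other libraries, whose values stand side by side since no difference between single libraries can be tested. At 1 week 213 of 376 beta cells were on the high side and 99 on the low side. *Ins2* took 358174 against 522444 CPM there, and 74.8% of 1820 compared genes were higher with a median log2 ratio of 0.98, so a count of higher members says little. *Hspa5* was at 2136 against 471 CPM (2.18, 1.93 to 2.44), *Atf4* at 1.91 and *Chac1* at 3.96 (2.05 to 7.04, from 67 and 2 UMIs), and all 19 compared members of the integrated stress response were higher with a median of 2.13. The heat shock list had a median of 1.44 and the ER chaperones 0.79, against 0.98 for all genes. Of 6 immediate early genes compared 4 were higher, with a median of 1.07. *Fos* had 5 and 6 UMIs on the high and low side and *Fosb* none, while *Jun* had 65 and 5. Mitochondrially encoded mRNAs were lower on the 1-week high side, 10 of 11, with a median of -1.91.

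In WT, 30 of 1083 beta cells were on the high side and 845 on the low side, and 23.5% of 2628 compared genes were higher. With cells from 1500 UMIs, thinned to 1500, there were 235 high and 3712 low cells, and 20.2% of 4942 genes were higher with a median of 0.13. At that depth 0.08% of a cell's UMIs is a few molecules. *Jun* was at 2.29, *Fos* at 2.01, *Hspa1b* at 2.17, *Hspb1* at 2.79 and *Hspa5* at 1.14. The counts of members were 12 of 15 heat shock genes, 14 of 16 immediate early genes, 9 of 23 of the integrated stress response and 5 of 27 ER chaperones. *Atf4* was at 0.90 and *Ins2* at -0.14.

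Levels over all beta cells differed between the libraries. Among beta cells chosen with the same limits, the heat shock list was at 2908 CPM in WT, 3216 CPM at 1 week and 8364 CPM at 5 weeks, and the immediate early list at 1260, 1169 and 5082 CPM. *Hspa5* was at 355, 1437 and 1415 CPM and *Herpud1* at 123, 301 and 547 CPM in the same order. *Ddit3* and the integrated stress response list were highest at 1 week, at 1527 CPM against 189 CPM at 5 weeks and at 4590 against 1256 CPM. The same limits kept 9.0% of barcodes in WT, 16.4% at 1 week and 31.7% at 5 weeks, where the median barcode held 1396, 2759 and 2467 UMIs. Doublets had been removed by the authors in WT only. Library, animals, time and this unlike selection cannot be told apart in these values.

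**Figure D5:**
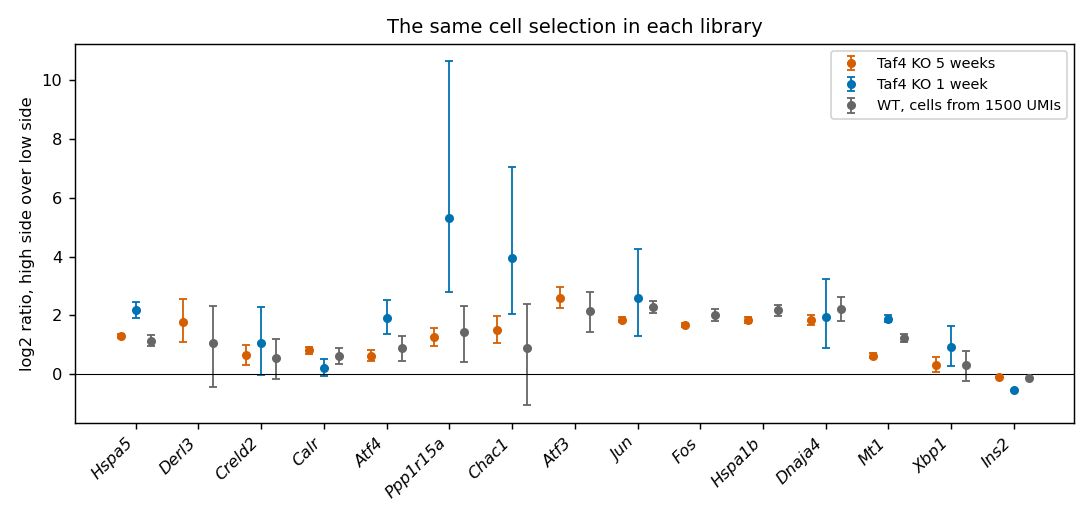
Log2 ratios of high over low within each library for 15 genes, with exact 95% intervals for counting error; genes with under 20 UMIs, or 0 on 1 side, in a library are left out there. Hspa5 lies above 0 in each library, at 1.29, 2.18 and 1.14, Chac1 and Ppp1r15a are highest at 1 week, and Derl3, Atf3, Fos and Hspa1b have no point at 1 week. WT cells are those from 1500 UMIs.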

How the data were processed

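Islet cells were captured with 10X Genomics Chromium 3′ chemistry in 1 library per condition. As deposited, each table holds an unnormalised UMI count for every gene in every barcode, which the authors made with Cell Ranger 3.1 against mm10. In WT only, the authors removed doublets and cells with several hormones and scaled the library to 12000 cells. Cells of the 5-week library were selected as stated, thinned to 3000 UMIs by drawing without replacement (seed 1), and summed per side with Python 3.11.15, numpy 2.4.6, scipy 1.17.1 and pandas 2.3.3. Figures were drawn with matplotlib 3.10.9. The sums, ratios and intervals were tested on simulated data. A count of 0 was taken as 3. The members and lists were chosen with earlier results of these data known. Genes named are *Herpud1*, *Ddit3*, the 15 highest and 10 lowest ratios, up to 4 highest and 2 lowest per list, and genes fixed for their role; exceptions are stated. Gene coordinates and promoters are RefSeq, GRCm38.p6. Alternatives changed the thinning, denominator, depth, cell limits, selecting gene, thresholds and minimum UMIs. Some genes that the rule names are not reported here.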

Additional observations from a re-analysis of the deposited data

How the results depend on the processing

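With 1 library per condition and the 2 mice pooled, no interval or count here covers differences between animals, and genes under 200 UMIs are limited by counting error. No paired analysis was possible because each condition had 1 library. Of 60 named genes past 1.5-fold, 29 of 50 higher and 3 of 10 lower had the same sign under all 19 alternatives. Some of these could not turn a sign. Changing the minimum UMIs left each ratio as it was. Leaving insulin out of the denominator lowered all ratios alike, by too little to turn a gene past 1.5-fold. The last 3 alternatives, by heat shock and immediate early genes and by endothelial markers, were chosen after seeing the data. Where values changed, the cause was not tested beyond the fewer cells or genes compared.

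The number of genes compared differed between settings, so each count of called genes is given with it. Against 482 of 5921 genes higher, the count was 270 of 5921 without *Ins1* and *Ins2* in the denominator. It was 318 of 5040 with *Ins2* between 50% and 65% and 299 of 6513 with sides by *Ddit3* alone (0.02% or more against none). With sides chosen on other UMIs it was 238 of 3312. With minimums of 20 and 200 UMIs it was 1040 of 8596 and 105 of 1993. In cells low in heat shock and immediate early genes it was 212 of 3494. Against 85 of 5921 lower, the count was 205 of 5921 without insulin and 50 of 3625 in cells under 5000 UMIs. It was 313 of 8596 and 0 of 1993 with minimums of 20 and 200 UMIs. In cells low and high in those genes it was 274 of 3494 and 227 of 3875. The median of 0.11 was -0.046 without insulin and -0.0093 in cells low in those genes. *Hspa5* (1.29) was at 1.14 without insulin, 1.47 in cells from 5000 UMIs, 1.13 in cells under 5000 UMIs, 1.18 with the *Ins2* limits, 1.21 and 0.69 with sides by *Herpud1* (0.06% or more against under 0.02%) and by *Ddit3* alone, 1.19 on other UMIs, 1.58 with thresholds of 0.12% and 0.02%, and 1.04 and 0.31 in cells low and high in those genes. *Ins2* (-0.09) was at -0.070 without thinning, -0.24 without insulin, -0.060 from 5000 UMIs, -0.12 under 5000, -0.10 both within 200 to 1500 genes and without cells over 10000 UMIs, -0.091 with stricter *Gcg* and *Sst* limits, -0.042 with the *Ins2* limits, -0.081 and -0.052 by *Herpud1* and by *Ddit3* alone, -0.046 on other UMIs, -0.11 with the thresholds, and -0.014 and -0.025 in cells low and high in those genes.

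In 48 values over 28 genes the sign turned, and those reported here follow. In cells from 5000 UMIs these were *Creb3l1* at -0.11, *Dars* at -0.18, *Fdft1* at -0.036, *Mlh3* at 0.10 and *Srrm3* at 0.34, and in cells under 5000 UMIs *Psmd3* at -0.20 and *Slc35a3* at 0.33, which was also at 0.065 within 200 to 1500 genes. With the *Ins2* limits *Ppy* was at -0.43 and *Sox4* at -0.15. By *Ddit3* alone *Mlh3* was at 0.12, *Rpl13a* at -0.065, *Slc35a3* at 0.24, *Srrm3* at 0.26 and *Tlk2* at 0.062, and by *Herpud1* alone *Psmd3* at -0.023 and *Tlk2* at 0.12. On other UMIs *Asna1* was at 0.16, *Cd81* at -0.13, *Creb3l1* at -1.22, *Dars* at -0.056, *Mcl1* at -0.12, *Mlh3* at 0.10, *Prmt7* at 0.76, *Rpl13a* at -0.50, *Scd2* at 0.20 and *Srrm3* at 0.43. With the thresholds *Dars* was at -0.42 and *Ldhb* at -0.16. In cells low in heat shock and immediate early genes *Cd81* was at -0.19, *Creb3l1* at -0.044, *Cyp51* at -0.23, *Dars* at -0.76, *Ldhb* at -0.027, *Ppy* at -0.92, *Rpl13a* at -1.06, *Sel1l* at -0.015, *Tubgcp4* at -0.33 and *Vcl* at -0.28, and in cells high in them *Hmgcs1* at -0.28, *Hmox1* at -0.53, *Hspb1* at -0.015, *Ppy* at -0.20, *Sox4* at -0.98, *Taf7* at -0.14, *Txnip* at -0.01 and *Wee1* at -0.38.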
